A study of Homo sapiens with 26 samples.

Results

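A set of human selenoproteins was followed through a set of ribosome profiling libraries: the glutathione peroxidases GPX1 and GPX4, the thioredoxin reductases TXNRD1 and TXNRD2, the selenophosphate synthetase SEPHS2 and the methionine sulfoxide reductase MSRB1. The 6 were picked by gene symbol, and each had 1 row among the 19478 coding sequences counted in every library. Ribosome profiling sequences the mRNA fragments that a ribosome shields from RNase I, so a count is a footprint placed in a coding sequence. The study compared ways of removing ribosomal RNA fragments from such libraries, in 26 libraries of 3 established cell lines. HEK293T and HEK293FT are human embryonic kidney derivatives that carry the SV40 large T antigen, and K562 is a chronic myelogenous leukaemia line with erythroid features.

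HEK293T libraries, of 15 to 35 nt fragments, were undepleted or treated with legacy Ribo-Zero Gold, RiboCop or NEBNext, with 2 libraries in each of these 4 groups. A K562 kit experiment, of 20 to 34 nt fragments, held 2 undepleted libraries, 2 with FastSelect, 2 with riboPools and 2 with riboPools eluted cold, and 1 each of Ribo-Zero Plus alone, with formaldehyde, with oligos, and with both. A K562 size-selection experiment held 1 NEBNext and 1 undepleted library at 20 to 34 nt and 1 of each at 20 to 60 nt. Both libraries titled undepleted there also carry a label naming NEBNext, and they were grouped by title. HEK293FT, of 15 to 35 nt fragments, had 1 undepleted library and 1 depleted with custom oligos. All cells were lysed with cycloheximide present. HEK cells were grown in DMEM and K562 cells in RPMI, both with serum. Medium, cell line, experiment and, for K562, fragment size thus cannot be told apart in comparisons between lines. In comparisons of depleted libraries the kit cannot be told apart either. They used riboPools for K562, Ribo-Zero Gold and RiboCop for HEK293T, and custom oligos for HEK293FT. The labels name no separate cultures, and p-values therefore measure the spread between these libraries, which may be technical.

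A selenoprotein contains selenocysteine (Sec), the selenium analogue of cysteine, inserted at a UGA codon that would otherwise end translation. Recoding needs a SECIS hairpin in the 3' untranslated region, its binding protein SECISBP2, the elongation factor EEFSEC and the Sec tRNA, whose selenium donor is made by SEPHS2, itself a selenoprotein. When selenium is scarce some messages lose translation and mRNA before others: GPX1 is known as a sensitive one and GPX4 as a protected one, and a UGA that lies well upstream of the last exon junction can expose a message to nonsense-mediated decay.

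The codons around each Sec UGA are shown because they are the feature that defines the set. Each line is the coding strand 5′ to 3′, with the recoded TGA in capitals, from GENCODE release 29 on GRCh38, and with up to 7 codons on each side.
GPX1: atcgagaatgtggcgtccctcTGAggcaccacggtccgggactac
GPX4: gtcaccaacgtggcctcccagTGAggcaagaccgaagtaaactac
TXNRD1: agcatcctccaggctggctgcTGAggttaa
TXNRD2: gaccccacggtgacaggctgcTGAgggtaa
SEPHS2: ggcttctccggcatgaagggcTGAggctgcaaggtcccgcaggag
MSRB1: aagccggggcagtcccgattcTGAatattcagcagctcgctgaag

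The Sec codons lie at chr3:49358132-49358134 (minus strand, GPX1), chr19:1105403-1105405 (plus strand, GPX4), chr12:104348413-104348415 (plus strand, TXNRD1), chr22:19877111-19877113 (minus strand, TXNRD2), chr16:30445548-30445550 (minus strand, SEPHS2) and chr16:1940812-1940814 (minus strand, MSRB1). The base after the TGA is G in all of them but MSRB1, where it is A. Both thioredoxin reductase windows end at the ordinary stop codon, a single glycine codon after Sec, and share the bases ggctgc before the TGA, which encode glycine and cysteine.

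Where a ribosome meets the UGA differs greatly among the 6. In SEPHS2 it is codon 60 of 448, with 13.2% of the coding sequence before it. It is codon 49 of 203 in GPX1 (23.7% before it), codon 73 of 197 in GPX4 (36.5%) and codon 95 of 116 in MSRB1 (81.0%). In TXNRD1 it is codon 498 of 499 and in TXNRD2 codon 523 of 524. Most of a SEPHS2, GPX1 or GPX4 count can thus come from codons that only a ribosome past the UGA reaches, while a thioredoxin reductase count comes almost wholly from codons before it. The deposited counts are given per coding sequence, not by codon. Whether they include reads past the UGA is not given in the sources used here. Reads before and after the UGA were not analysed here.

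**Figure D1:**
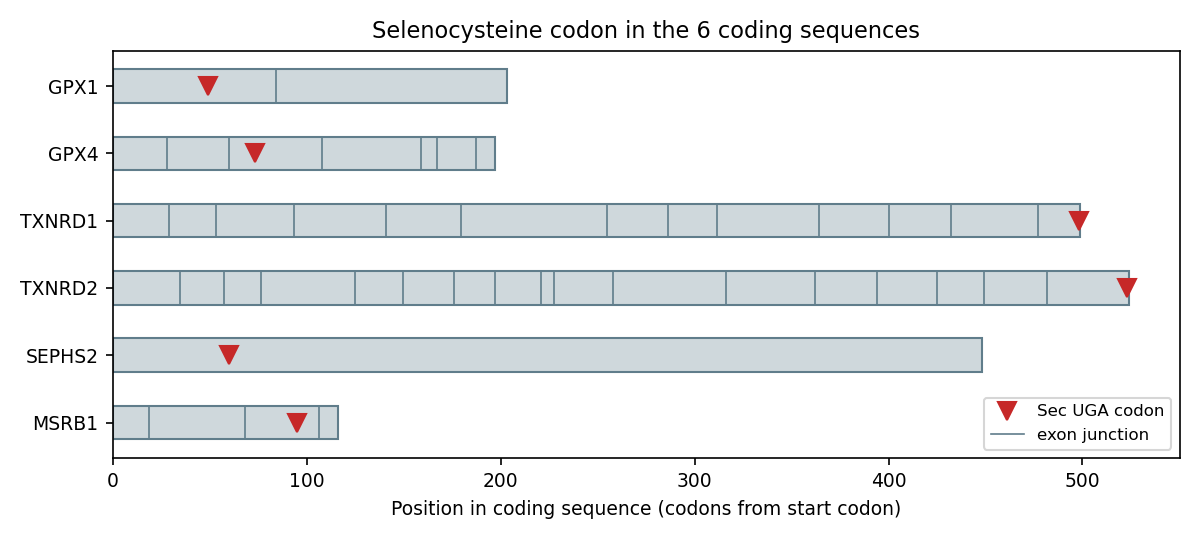
Position of the Sec UGA codon (triangle) and of exon junctions (thin lines) along each of the 6 coding sequences, in codons from the start codon. The UGA is at codon 60 of 448 in SEPHS2 and at the last codon but one in TXNRD1 and TXNRD2.

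Exon structure differs as well. The end of the TGA lies 342 nt before the last exon junction of the transcript in GPX4 (exon 3 of 7), 105 nt in GPX1 (exon 1 of 2), 71 nt in TXNRD2 (exon 17 of 18) and 34 nt in MSRB1 (exon 3 of 4). In TXNRD1 it is in the last exon, and SEPHS2 has a single exon. Some rows can share reads with other sequence: GPX1 has 2 named pseudogenes in the annotation, and SEPHS2 and MSRB1 have 1 each. How reads with several matches were counted is not given in the sources used here, so these rows carry that uncertainty.

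Library totals ran from 46858 to 5795774 counts. The HEK293T libraries (120019 to 421521) and the K562 size-selection libraries (46858 to 441249) were shallow, as were the 3 Ribo-Zero Plus libraries with additions (116742 to 184722). Levels are given in CPM, the count scaled to a library of 1e6 counts, with 95% exact Poisson intervals for single libraries. Such intervals cover counting error only: the adapter carries random bases, but whether they were used to collapse PCR copies is not given in the sources used here. The lines matched their labels: all 8 K562 markers, among them the globins HBG1, HBG2 and HBE1, had 0 counts in HEK293T and 4 counts in all in HEK293FT, against summed levels of 3893 to 12893 CPM in K562. Of the 4 HEK293 markers, NEFM and PAX2 were at 0 in every K562 library and the summed level there was at most 0.54 CPM, against 201 to 613 CPM in the HEK lines.

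GPX1, the cytosolic peroxidase that reduces hydrogen peroxide with glutathione, separated the cell lines completely. No footprint was counted on it in any of the 16 K562 libraries, which hold 27561047 counts together; 3 counts would have been 0.109 CPM. Undepleted HEK293T libraries had 150 CPM (18 counts) and 84.7 CPM (13 counts). Across all 8 HEK293T libraries the lowest level was 79.6, the median 121 and the highest 150 CPM. HEK293FT had 179 CPM undepleted (161 counts; interval 152 to 209) and 156 CPM with custom oligos (894 counts; 146 to 166). K562 and HEK libraries did not overlap, whatever the depletion.

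GPX1 passed the filter on low counts in the undepleted comparison only through the HEK libraries, so its call in K562 against both HEK lines adds nothing to the counts themselves and no p is given. Against a floor of 3 counts over both K562 undepleted libraries of the kit experiment (1.38 CPM), the mean of 117 ± 46.1 CPM (SD, n = 2) in HEK293T was at least 84.8-fold higher, and the HEK293FT value at least 129-fold higher. Between the HEK lines GPX1 was not called undepleted (HEK293FT over HEK293T 0.78, interval 0.23 to 1.33; adjusted p = 0.0646 by edgeR's quasi-likelihood test with Benjamini-Hochberg adjustment), and was 0.57 ± 0.13 higher in HEK293FT among depleted libraries (adjusted p = 0.000229). In every test against HEK293FT, which has 1 undepleted and 1 depleted library, that library is assumed to vary like the other groups, whose spread supplies the SE and p. These are bulk lysates, in which fewer cells carrying a message, less of it per cell and fewer ribosomes on it cannot be told apart.

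GPX4, the peroxidase that reduces lipid hydroperoxides in membranes and restrains ferroptosis, was present in all 26 libraries. Undepleted HEK293T libraries had 75.0 CPM (9 counts) and 39.1 CPM (6 counts), and HEK293T libraries of all treatments ran from 39.1 to 111 with a median of 82.3 CPM. In the 8 kit-experiment K562 libraries without Ribo-Zero Plus it lay between 83.7 and 88.3 CPM, with a mean of 85.7 ± 1.60 (SD, n = 8), a spread of 1.86% where counting error alone gives 7.34%. HEK293FT was highest, with 180 CPM undepleted (153 to 210) and 166 CPM with custom oligos (155 to 176). Both HEK293FT libraries were above every library of the other lines.

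With the spread taken from the other lines, GPX4 was higher in HEK293FT than in HEK293T, by 1.83 ± 0.34 on the log2 scale (SE; adjusted p = 2.76e-06 by edgeR's quasi-likelihood test with Benjamini-Hochberg adjustment). The call was lost without HEK293T undepleted replicate 2 (1.45; adjusted p = 0.054), and DESeq2 gave no adjusted p for this gene. Among depleted libraries, a comparison chosen after seeing the data, the difference was 0.92 ± 0.14 (adjusted p = 6.47e-10). GPX4 was lower in K562 than in HEK293FT, by −1.06 ± 0.16 undepleted (adjusted p = 5.51e-10) and −0.79 ± 0.07 among depleted libraries (adjusted p = 3.63e-32). Between K562 and HEK293T it was not called: the difference was 0.77 (95% interval 0.05 to 1.49; adjusted p = 0.0743) undepleted and 0.04 ± 0.14 (adjusted p = 0.834) in libraries depleted on beads, K562 riboPools with either elution against HEK293T Ribo-Zero Gold and RiboCop. Without HEK293T undepleted replicate 1 the undepleted difference was 1.35 and was called (adjusted p = 0.0468).

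**Figure D2:**
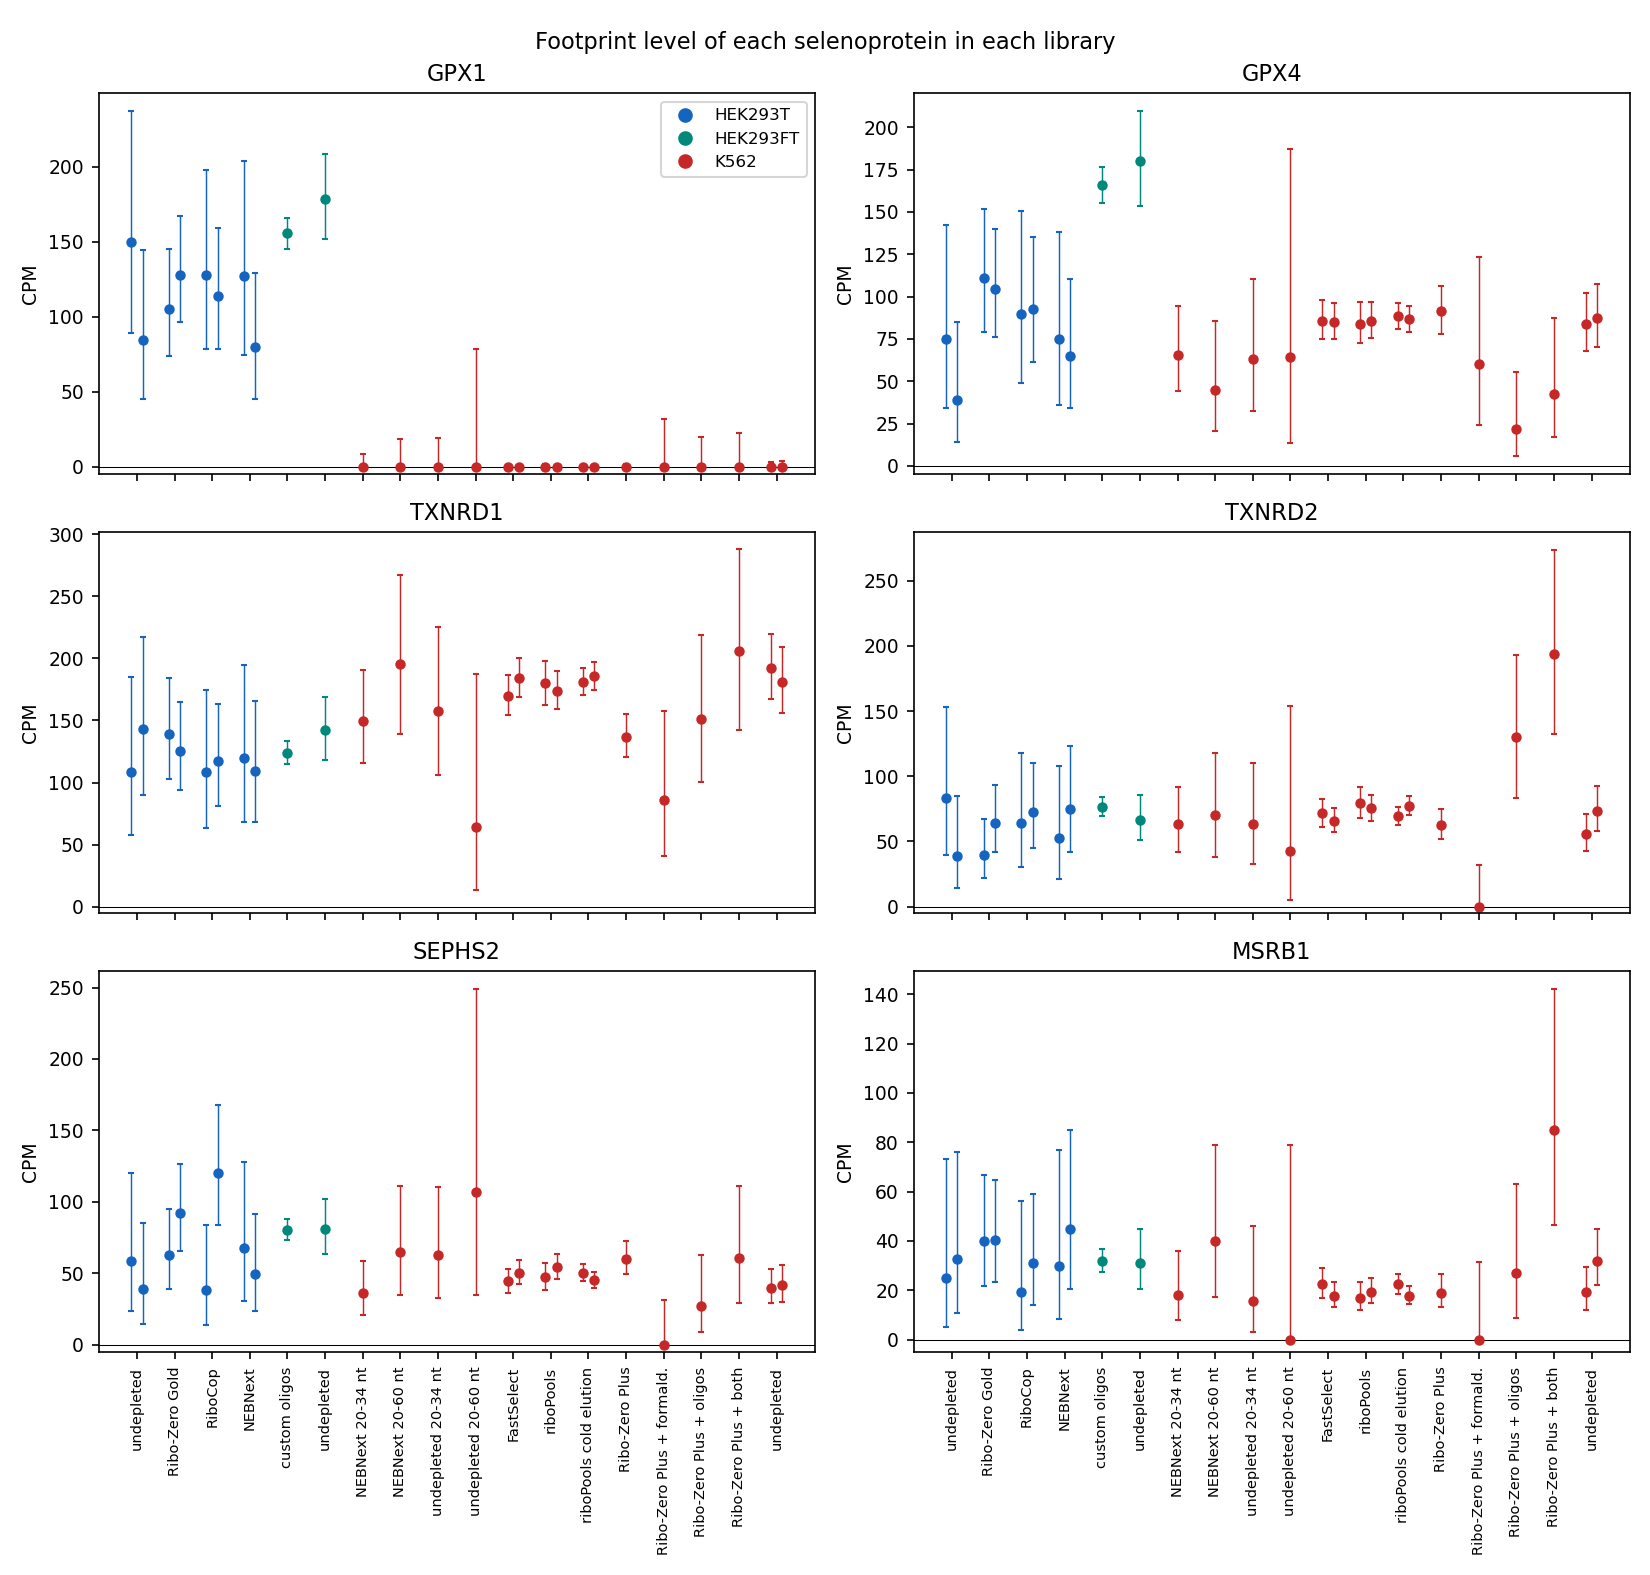
Level of each selenoprotein in each of the 26 libraries in CPM (linear axis), by cell line (colour) and depletion; bars are 95% exact Poisson intervals of single libraries. GPX1 is at 0 in all 16 K562 libraries, and GPX4 is highest in HEK293FT.

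TXNRD1, the cytosolic enzyme that keeps thioredoxin reduced with NADPH, had the highest CPM of the set in both undepleted K562 libraries of the kit experiment. Undepleted K562 libraries of the kit experiment had 192 and 181 CPM, and the 8 kit-experiment libraries without Ribo-Zero Plus ran from 170 to 192 CPM. HEK293T ran from 108 to 143 CPM over 8 libraries, with 108 and 143 undepleted, and HEK293FT had 142 CPM undepleted and 124 CPM with oligos. These 8 K562 libraries were all above every HEK library. The difference was 0.68 ± 0.25 on the log2 scale against HEK293T (adjusted p = 0.0166 by edgeR's quasi-likelihood test with Benjamini-Hochberg adjustment) and 0.41 ± 0.15 against the single HEK293FT library (adjusted p = 0.0161). With depleted libraries it was 0.79 ± 0.12 (adjusted p = 5.69e-11) and 0.69 ± 0.06 (adjusted p = 2.58e-28).

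The undepleted TXNRD1 calls were fragile, and in the depleted comparisons the kit differed with the line. Against HEK293T the adjusted p was 0.0616 with total count scaling, 0.196 with DESeq2, 0.0529 without K562 undepleted replicate 1 and 0.148 without HEK293T undepleted replicate 1. Against HEK293FT it was 0.445 with DESeq2, and 0.131 and 0.0538 without K562 undepleted replicate 1 and 2. Total count scaling in place of TMM moved the median of all genes from 0.01 to −0.12 for K562 against HEK293T and from 0 to −0.11 for HEK293FT against HEK293T, and TXNRD1 moved with it, to 0.55 and 0.15. For the size-selection libraries against HEK293T that median moved from 0.01 to −0.11. The K562 size-selection libraries gave 158 CPM at 20 to 34 nt (30 counts) and held 3 counts at 20 to 60 nt, and their difference from HEK293T was 0.24 with an interval of −0.47 to 0.95.

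TXNRD2, the mitochondrial thioredoxin reductase, showed no difference between undepleted libraries that passed the test. It had 83.3 and 39.1 CPM in HEK293T (10 and 6 counts), 55.5 and 73.7 CPM in K562 and 66.6 CPM in HEK293FT. All these ranges overlapped. K562 over HEK293T was 0.27 with an interval of −0.48 to 1.01 (adjusted p = 0.597), and K562 over HEK293FT −0.04 with −0.50 to 0.41 (adjusted p = 0.886), by edgeR's quasi-likelihood test with Benjamini-Hochberg adjustment. In libraries depleted on beads TXNRD2 was 0.55 ± 0.17 higher in K562 than in HEK293T (adjusted p = 0.00221), and among depleted libraries it was 0.51 ± 0.18 higher in HEK293FT than in HEK293T (adjusted p = 0.0324).

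SEPHS2, which makes the selenophosphate used to charge the Sec tRNA, had 39.6 and 41.7 CPM in undepleted K562 of the kit experiment. HEK293T undepleted libraries had 58.3 and 39.1 CPM (7 and 6 counts), and HEK293FT had 81.0 CPM undepleted and 80.6 CPM with oligos. HEK293T libraries of all treatments ran from 38.4 to 120 CPM, both ends being RiboCop libraries. The kit-experiment libraries were lower than the single HEK293FT library, by −0.98 ± 0.24 (adjusted p = 0.000156 by edgeR's quasi-likelihood test with Benjamini-Hochberg adjustment) and by −0.55 ± 0.09 among depleted libraries (adjusted p = 2.1e-09). DESeq2 did not call the undepleted difference (adjusted p = 0.0923). The K562 size-selection libraries had 63.1 and 107 CPM undepleted (12 and 5 counts), 0.71 above HEK293T (interval −0.36 to 1.79). Their counting intervals, 32.6 to 110 and 34.6 to 249 CPM, include the level of the kit experiment. With NEBNext they had 36.3 and 65.1 CPM, and SEPHS2 was not called between both K562 experiments. Against HEK293T the undepleted difference of the kit experiment was −0.09 with an interval of −0.97 to 0.78, and −0.54 ± 0.17 (adjusted p = 0.00231) among libraries depleted on beads.

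MSRB1, which reduces the R form of methionine sulfoxide, has the shortest coding sequence of the set, and its counts were too low for the undepleted comparison between lines. HEK293T undepleted libraries held 3 and 5 counts, K562 22 and 33 counts (19.4 and 32.0 CPM) and HEK293FT 28 counts (31.1 CPM). The groups overlapped. Among depleted libraries the difference of K562 from HEK293FT was −0.57 ± 0.15 (adjusted p = 0.000204 by edgeR's quasi-likelihood test with Benjamini-Hochberg adjustment), while the −0.53 against HEK293T was not called (adjusted p = 0.0924).

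Read against all genes, calls between lines are common. Among undepleted libraries 44.5% of 5551 genes tested were called between K562 and HEK293T (22.8% higher in K562, 21.7% lower), and 2 of the 5 members tested, TXNRD1 higher and GPX1 lower, the latter tested only because of its HEK counts. Between K562 and HEK293FT 60.4% of genes were called (30.2% in each direction) and 4 of 5 members, TXNRD1 higher and GPX1, GPX4 and SEPHS2 lower. Between HEK293FT and HEK293T 7.58% were called (4.77% higher in HEK293FT, 2.81% lower) and 1 of 5 members, GPX4. MSRB1 fell below the filter on low counts in all 3. With depleted libraries, where all 6 were tested, 63.4% of genes and 4 members were called between K562 and HEK293T, 78% and 5 members between K562 and HEK293FT, and 16.5% and 3 members between HEK293FT and HEK293T. Every share between K562 and a HEK line includes GPX1, so these shares are not read against the background. Apart from GPX1, the undepleted calls were TXNRD1 against HEK293T, and TXNRD1, GPX4 and SEPHS2 against HEK293FT. In the undepleted comparisons the median log2 fold changes of the members tested, GPX1 among them, were 0.27, −0.98 and 0.78. The medians over all genes were 0.01, −0.01 and 0. Since GPX1 is among the members, the medians of K562 against a HEK line are not read against those of all genes. Without GPX1, the values against HEK293T were 0.77 (GPX4), 0.68 (TXNRD1), 0.27 (TXNRD2) and −0.09 (SEPHS2). Against HEK293FT they were −1.06, 0.41, −0.04 and −0.98 in the same order. The 3 comparisons share libraries. Between both K562 experiments 0.288% of genes and 0 of 4 members with a value were called; SEPHS2 differed most, at 0.81 (adjusted p = 0.813). Of the size-selection libraries against HEK293T, where 29.3% of genes were called (16.5% higher, 12.8% lower), GPX1 was the 1 member of 5 called. It was again tested only because of its HEK counts.

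**Figure D3:**
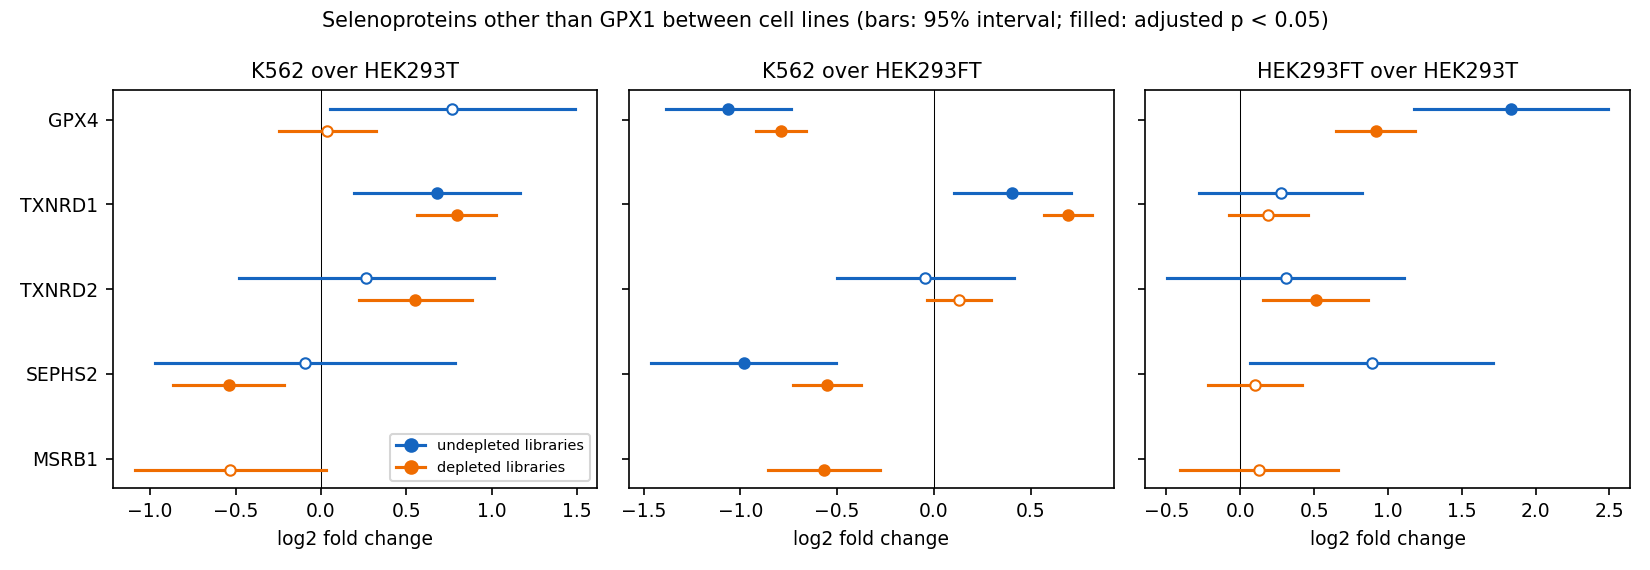
Log2 fold change of 5 selenoproteins between cell lines, from undepleted (blue) and depleted (orange) libraries, with 95% intervals; filled points passed an adjusted p of 0.05. GPX4 lies below 0 for K562 over HEK293FT and above 0 for HEK293FT over HEK293T in both kinds of library; GPX1 is left out since K562 has no count.

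Levels between the members can be compared per length of coding sequence. Over the 8 HEK293T libraries GPX1 led with 188 ± 39.2 CPM per kb (SD, n = 8), followed by GPX4 (138 ± 39.2), MSRB1 (94.4 ± 24.4), TXNRD1 (81.2 ± 9.18), SEPHS2 (49.2 ± 20.8) and TXNRD2 (38.9 ± 10.3). Of the neighbours in that order, TXNRD1 and SEPHS2 differed by more than the sum of their SDs, and the others did not. In undepleted HEK293FT the order began with GPX4 at 304 and GPX1 at 293 CPM per kb, whose intervals overlapped, and went on with TXNRD1 (94.9), MSRB1 (89.3), SEPHS2 (60.3) and TXNRD2 (42.4). In the 8 K562 libraries without Ribo-Zero Plus it was GPX4 (145 ± 2.70), TXNRD1 (121 ± 4.54), MSRB1 (60.4 ± 14.0), TXNRD2 (45.2 ± 4.84), SEPHS2 (34.7 ± 3.64) and then GPX1 at 0. There MSRB1 and TXNRD2 were the neighbours within the sum of their SDs. Both peroxidases headed the order in the HEK lines, and GPX4 in K562.

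Kit effects were tested where a member had enough counts, which leaves out GPX1 in K562. In HEK293T 3.24% of 4410 genes were called with NEBNext, an RNase H method, and 0.068% with Ribo-Zero Gold. With RiboCop 0% were called (0 genes by edgeR's quasi-likelihood test, 195 at an unadjusted p under 0.05, and 0 to 1 under the alternatives tried). None of the 5 members tested was called with any of these kits, and MSRB1 fell below the filter on low counts. The furthest from 0 were GPX4 with Ribo-Zero Gold, at 0.96 (interval 0.21 to 1.71; unadjusted p = 0.012, adjusted p = 0.708), and SEPHS2 with RiboCop, at 0.92 ± 0.45 (SE; adjusted p = 0.997). The GPX4 libraries were 111 and 104 CPM with Ribo-Zero Gold (intervals 78.9 to 152 and 75.8 to 140). Undepleted they were 75.0 and 39.1 CPM (34.3 to 142 and 14.3 to 85.1), so the intervals overlapped. These libraries held 6 to 44 counts of either gene, and differences within such intervals were not detectable at this depth.

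The K562 kit experiment was deeper. There 0.0198% of 10078 genes were called with FastSelect, 0.0794% with riboPools and 0.258% with riboPools and cold elution, and 0 of 5 members with each. GPX4 differed from undepleted by −0.00 (−0.25 to 0.25), −0.01 (−0.27 to 0.24) and 0.03 (−0.20 to 0.26). TXNRD1 differed by −0.08 (−0.25 to 0.10), −0.09 (−0.26 to 0.09) and −0.03 (−0.19 to 0.13). The widest of these intervals reaches −0.27. SEPHS2 (0.23, 0.33 and 0.23) was above 0 and MSRB1 (−0.35, −0.47 and −0.34) below 0 with all 3, with adjusted p from 0.853 to 0.962; the 3 contrasts share the undepleted libraries. Undepleted MSRB1 was 19.4 and 32.0 CPM against 17.0 to 22.4 in the depleted libraries, so that replicate 2 alone stood above them.

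Ribo-Zero Plus, another RNase H kit, was the treatment with many calls: 20.6% of the 10078 genes (8.95% higher, 11.7% lower), and 2 of 5 members. TXNRD1 was 137 CPM (252 counts; 121 to 155) against 192 and 181 undepleted, and fell by 0.43 ± 0.12 on the log2 scale (adjusted p = 0.00402 by edgeR's quasi-likelihood test with Benjamini-Hochberg adjustment). SEPHS2 was 60.3 CPM (111 counts; 49.6 to 72.6) against 39.6 and 41.7, and rose by 0.59 ± 0.21 (adjusted p = 0.0314). GPX4, at 91.3 CPM, differed by 0.11, TXNRD2 by −0.02 and MSRB1 by −0.40, and none of them was called. Here 1 library is assumed to vary like the replicated groups.

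Both Ribo-Zero Plus calls were lost with DESeq2 (adjusted p = 0.0611 for TXNRD1 and 0.171 for SEPHS2), with all 12 libraries of the kit experiment in the fit (0.131 and 0.987) and without K562 undepleted replicate 1 (0.0535 and 0.137), and that of SEPHS2 also without K562 undepleted replicate 2 (0.0775). The 3 shallow libraries with additions scattered widely. TXNRD2 had 130 CPM (24 counts; 83.2 to 193) with oligos and 194 CPM (32 counts; 133 to 274) with oligos and formaldehyde, both above every other library, and 0 counts with formaldehyde alone, which allows up to 31.6 CPM. MSRB1 reached 84.8 CPM (14 counts; 46.3 to 142) with both additions, and GPX4 was at its lowest with oligos, at 21.7 CPM (4 counts; 5.90 to 55.4). No group of these has a second library.

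**Figure D4:**
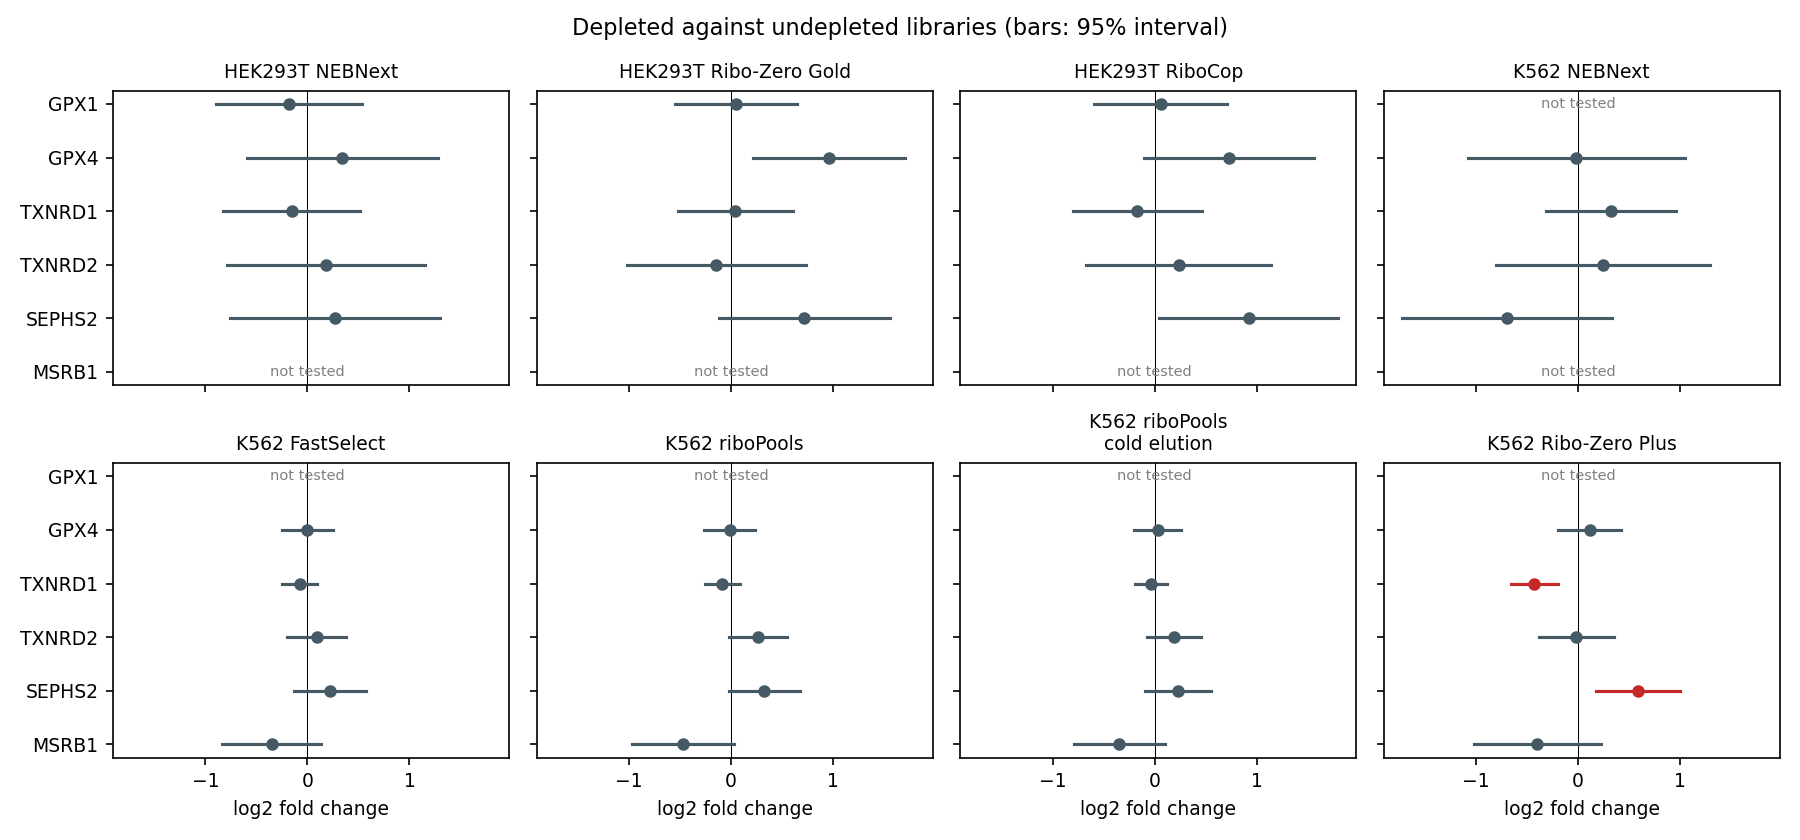
Log2 fold change of each selenoprotein in depleted against undepleted libraries for 8 depletion methods, with 95% intervals; red marks an adjusted p under 0.05. TXNRD1 (−0.43) and SEPHS2 (0.59) with K562 Ribo-Zero Plus are the points in red.

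NEBNext in the K562 size-selection experiment called 2.85% of 3715 genes and 0 of 4 members. SEPHS2 was lowest at −0.70 (−1.73 to 0.33), TXNRD1 was 0.32, TXNRD2 0.24 and GPX4 −0.02. A test of the NEBNext effect in K562 against that in HEK293T called 0.169% of genes and 0 of 4 members with a value; the largest difference was that of SEPHS2, −0.88 (−2.35 to 0.60; adjusted p = 0.855 by edgeR's quasi-likelihood test with Benjamini-Hochberg adjustment). The HEK293FT pair, with 1 library on each side, has no test. Its log2 ratios of oligo-depleted over undepleted were −0.20 for GPX1, −0.12 for GPX4, −0.20 for TXNRD1, 0.20 for TXNRD2, −0.01 for SEPHS2 and 0.03 for MSRB1. Every one of these counting intervals includes 0.

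The machinery that writes Sec was measured beside its products. Of 9 Sec synthesis factors, 3 passed the filter in the undepleted comparison. Of them 2, TRNAU1AP and SARS, were higher in K562 than in HEK293T, 0 lower, where 22.8% of all genes were higher and 21.7% lower. TRNAU1AP passed the filter only through K562 libraries, so its call adds nothing to the counts themselves and no p is given. This Sec tRNA-associated protein had 63.4 and 56.2 CPM in K562 against 3 and 4 counts in HEK293T, a difference of 1.35. The seryl-tRNA synthetase SARS, which first charges the Sec tRNA with serine, had 376 and 386 CPM against 200 and 326. The difference was 0.63 ± 0.17 (adjusted p = 0.0011 by edgeR's quasi-likelihood test with Benjamini-Hochberg adjustment). SEPHS1, a paralogue of SEPHS2 that is no selenoprotein, differed by −0.08. The median of the 3, 0.63, is the value of SARS. Since TRNAU1AP is among the 3, neither this median nor the 2 calls are read against all genes, whose median was 0.01. Of the factors not tested there, SECISBP2, SECISBP2L, EEFSEC, PSTK and SCLY had lower pooled levels in K562 than in both HEK lines. Pooled levels mix kits and, in K562, fragment sizes, and no test or share of all genes stands beside them. PSTK had 7.04 CPM in K562 against 8.21 CPM in HEK293T (15 counts) and 7.97 CPM in HEK293FT. SCLY had 13.3 CPM in K562 against 33.9 in HEK293T and 36.5 in HEK293FT, and EEFSEC 20.3 against 28.5 and 58.2. SEPSECS alone was higher in K562. Against HEK293FT 1 of the 3 was above 0 in K562, TRNAU1AP, called at 0.76, so SARS was not higher there. SARS was called higher in HEK293FT than in HEK293T, by 0.70. Both TRNAU1AP calls were lost with DESeq2 and without K562 undepleted replicate 1. The call against HEK293T was also lost without HEK293T undepleted replicate 1 or 2. Without HEK293T undepleted replicate 1 SARS was 0.45 between K562 and HEK293T and 0.48 between the HEK lines, and neither was called. DESeq2 did not call SARS between the HEK lines either.

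Of 19 other selenoproteins, 18 have a row and 5 were tested between undepleted libraries. Between K562 and HEK293T 0 of the 5 were called, where 44.5% of all genes were, and their median was −0.50 beside 0.01 for all genes. Against the single HEK293FT library, 2 were lower in K562 and 0 higher, where 30.2% of all genes went each way: SELENOH, a nuclear redox protein, fell by 1.55 ± 0.25 on the log2 scale (adjusted p = 1.76e-09 by edgeR's quasi-likelihood test with Benjamini-Hochberg adjustment), from 93.3 CPM to 38.8 and 23.3. SELENOS, a protein of endoplasmic reticulum quality control, fell by 0.64 (adjusted p = 0.0443), a call lost with DESeq2 (0.372) and without K562 undepleted replicate 1 (0.0964) or 2 (0.15). SELENOH was also higher in the K562 size-selection libraries (121 and 85.4 CPM) than in the kit experiment, by 1.84 (adjusted p = 0.000743), so that its level in K562 differed between experiments. That call was lost without K562 undepleted 20-34 nt (1.23; adjusted p = 0.859) and without K562 undepleted replicate 2 (1.54; adjusted p = 0.0894).

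With Ribo-Zero Plus 10 of these other selenoproteins were tested, of which 5 were higher and 1 lower, beside 8.95% higher and 11.7% lower of all genes. Their median was 0.36, beside −0.01 for all genes. SELENOW (14.7 CPM against 6.17 and 0.969), SELENOO (25.5 against 15.0 and 11.6), SELENOH (53.3 against 38.8 and 23.3), SELENOS (58.1 against 37.9 and 33.9) and SELENOF rose, by 1.996, 0.95, 0.78, 0.71 and 0.35 on the log2 scale, and SELENOK fell by 1.14. Their adjusted p ran from 0.00495 for SELENOW to 0.0487 for SELENOF by edgeR's quasi-likelihood test with Benjamini-Hochberg adjustment. SELENOF, SELENOS and SELENOK are proteins of the endoplasmic reticulum. Of the 9 Sec synthesis factors 0 were higher and 1 was lower, SECISBP2L, by −2.01 (7 counts against 20 and 14; adjusted p = 0.00277). DESeq2 called none of these 7 genes (adjusted p from 0.0546 for SECISBP2L to 0.209 for SELENOF), and without K562 undepleted replicate 2 none of the 6 selenoproteins was called (adjusted p from 0.0782 for SELENOS to 0.215 for SELENOH). SELENOW was 3.88 without undepleted replicate 1 and 1.26 without replicate 2, and SELENOH 1.21 and 0.48. With all 12 libraries SELENOO and SELENOS turned to −6.83 and −1.30. With every other kit 0 genes of these lists were called.

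**Figure D5:**
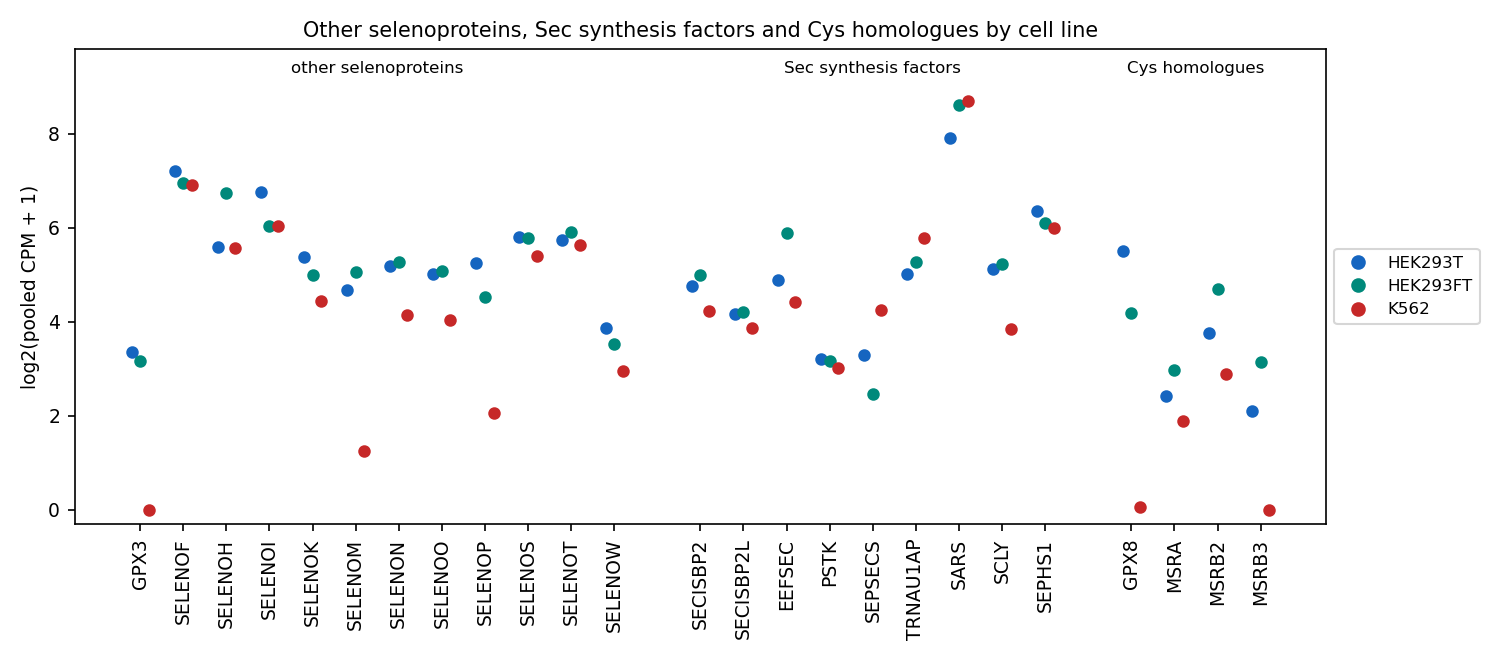
Level of other selenoproteins, Sec synthesis factors and enzymes with cysteine in place of Sec, as log2(pooled CPM + 1) over all libraries of HEK293T (blue), HEK293FT (teal) and K562 (red); genes with at least 1 CPM in a line are drawn, with no error bars. SARS is the highest of all in each line, and GPX3 and MSRB3 have no count in K562.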

How the data were processed

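Ribosome footprints were sequenced from 26 libraries of 3 cell lines. Read counts of each coding sequence, as whole numbers, were deposited by the authors in 4 tables with the same 19478 rows, and RPM values for those rows, which equal the count scaled by the library total. Base calling with CASAVA 1.8, alignment with STAR and GRCh38 (hg38) are named in the submitters' processing notes. Counting rules and duplicate handling are not given in the sources used here. Tests used edgeR 4.0.16 in R 4.3.3: TMM normalization, filterByExpr (minimum count 10), quasi-likelihood test, Benjamini-Hochberg adjustment over all genes tested, calls at an adjusted p under 0.05. Standard errors are the log2 fold change over the root of F. HEK293T kits were fitted over 8 libraries, K562 kits over 9 (without the 3 Ribo-Zero Plus libraries with additions), and cell lines over the 7 undepleted libraries. NEBNext in the K562 size-selection libraries was fitted with size as a term, except when a library was left out. In the cell-line fit and the test of the NEBNext difference both sizes were merged without that term. A difference between sizes therefore counts there as spread between libraries. DESeq2 1.42.0, other scalings, no filter, other library sets and leaving out each library were alternatives. The HEK293T RiboCop pair differed by no more than sampling noise (chi-square p = 0.103) and was kept as 2 libraries, since the labels number them and their values differ. Tests were tried on simulated data.

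Named were the 6 members in each comparison and, of the listed selenoproteins, Sec synthesis factors and Cys homologues, those called or among the 3 with most counts. Other listed genes are named for their pooled levels, which were seen first. Genes of like pattern were to be named for members with at least 10 counts in every undepleted library, which none had. Members and lists were chosen with earlier results of these data known. Sequences and positions come from GENCODE 29, where the GPX1 transcript has another version than in the deposited tables. TXNRD3 is not analysed here.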

Additional observations from a re-analysis of the deposited data

How the results depend on the processing

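Of 603 member results under an alternative, 533 kept their direction and side of the threshold, 16 lost a call, 5 gained one and 49 changed sign; the cause was not tested. Members called with Ribo-Zero Plus went from 2 to 0 with DESeq2 and with all 12 libraries, and to between 0 and 1 leaving out each library. With 12 libraries GPX4 turned to −0.85, TXNRD2 to 0.49 and MSRB1 to 0.32, where the median of all genes was −0.43, and list gene SECISBP2L turned to 0.0179, SELENOO to −6.83 and SELENOS to −1.30. Between K562 and HEK293T the count was 1 with total count scaling and with DESeq2, 4 with bead-depleted libraries, and 1 to 2 leaving out each library. Between K562 and HEK293FT it was 2 with DESeq2, and TXNRD2 was 0.13 with depleted libraries. Between HEK293FT and HEK293T it was 3 with depleted libraries (both depleted comparisons with HEK293FT were chosen after seeing the data) and 0 to 1 leaving out each library; DESeq2 gave no adjusted p for GPX4. Without the filter GPX4 was 0.042 with K562 NEBNext; with FastSelect it was 0.0018 under total count scaling, 0.0147 without the filter and 0.0009 with the groups compared alone.

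Leaving out each library in turn gave these log2 ranges where a sign changed. With HEK293T NEBNext GPX1 ran from −0.58 to 0.23, GPX4 from −0.10 to 0.82, TXNRD1 from −0.32 to 0.093, TXNRD2 from −0.32 to 0.75 and SEPHS2 from −0.0124 to 0.54. With Ribo-Zero Gold GPX1 ran from −0.34 to 0.47, TXNRD1 from −0.12 to 0.30 and TXNRD2 from −0.63 to 0.43. With RiboCop GPX1 ran from −0.32 to 0.49, TXNRD1 from −0.33 to 0.0892, TXNRD2 from −0.25 to 0.82 and SEPHS2 from −0.31 to 1.33. GPX4 ran from −0.43 to 0.15 with K562 NEBNext, from −0.0363 to 0.0295 with FastSelect, from −0.0482 to 0.0175 with riboPools and from −0.0051 to 0.0613 with cold elution. TXNRD2 ran from −0.11 to 0.30 with FastSelect, from −0.0148 to 0.40 with cold elution and from −0.22 to 0.19 with Ribo-Zero Plus. MSRB1 ran from −0.69 to 0.0403 with FastSelect and from −0.68 to 0.0481 with cold elution, and TXNRD1 from −0.0681 to 0.0088 with cold elution. Between K562 and HEK293T TXNRD2 ran from −0.13 to 0.94 and SEPHS2 from −0.28 to 0.28. TXNRD2 ran from −0.24 to 0.17 between K562 and HEK293FT, from −0.14 to 0.93 between HEK293FT and HEK293T and from −0.79 to 0.0789 between K562 experiments. For the size-selection libraries against HEK293T GPX4 ran from −0.0456 to 0.87, TXNRD1 from −0.95 to 0.56 and TXNRD2 from −0.41 to 0.77. The NEBNext difference ran from −0.81 to 0.0809 for GPX4 and from −0.46 to 0.64 for TXNRD2.

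Genes called ranged, around 143 with HEK293T NEBNext, from 56 to 154; around 3 with Ribo-Zero Gold, 1 to 5; around 106 with K562 NEBNext, 0 to 275; around 2 with FastSelect, 0 to 3; around 8 with riboPools, 0 to 11; around 26 with cold elution, 0 to 28; around 2080 with Ribo-Zero Plus, 491 to 2101. Around 2471 for K562 against HEK293T they ranged from 1637 to 6395, around 3351 against HEK293FT from 1734 to 9291, around 421 between HEK lines from 170 to 1965, around 16 between K562 experiments from 3 to 19, around 1624 for the size-selection libraries from 528 to 1664, and around 8 for the NEBNext difference from 1 to 27. The replicate block left 0 members called with each replicated kit and 154 genes with HEK293T NEBNext. Log2 differences of replicate 1 from replicate 2 correlated between groups by −0.029 to 0.043. Replicates differed little beyond counting noise (chi-square per degree of freedom 1.03 to 1.21), so these correlations cannot show whether the numbers pair libraries. The shallowest libraries were K562 undepleted at 20 to 60 nt (46858 counts) and K562 Ribo-Zero Plus with formaldehyde (116742 counts).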

Other observations

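Some listed genes other than the 6 had lower pooled levels in K562 than in the HEK lines. SELENOI, MSRB2, GPX8 and MSRA are named for their counts, and the others were chosen after their values were seen. All these levels are given without a test. SELENOI had 64.4 CPM in K562 against 107 CPM in HEK293T and 64.7 CPM in HEK293FT. GPX3, the secreted selenoprotein peroxidase, had 0 counts in 16 K562 libraries, against 17 counts (9.302 CPM) in HEK293T and 53 counts (7.97 CPM) in HEK293FT. SELENOM, a thioredoxin-like protein of the endoplasmic reticulum, had 38 counts in K562 (1.38 CPM, in 10 of 16 libraries) against 24.6 CPM in HEK293T and 32.3 CPM in HEK293FT. SELENOP, the selenium transport protein, had 87 counts in K562 (3.16 CPM, in 11 of 16 libraries) against 37.2 and 22.0 CPM. Among enzymes that use cysteine in place of Sec, GPX8 had 1 count in all of K562 (0.036 CPM) against 44.3 and 17.3 CPM, and MSRB3 had 0 against 3.28 and 7.82 CPM. MSRB2 had 6.42 CPM in K562 against 12.6 and 24.8 CPM, and MSRA 2.72 CPM against 4.38 and 6.92 CPM. SEPSECS, the enzyme that completes Sec on its tRNA, went the other way, with 17.9 CPM in K562 against 8.76 and 4.51 CPM.

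The zero of GPX1 in K562 can be set beside other genes, as a description of a set chosen for its level in the HEK lines. Of 2434 genes with at least 50 CPM in all 10 HEK libraries, 15 (0.616%) had 0 counts in all 16 K562 libraries, and GPX1 was the 7th of them by mean HEK level. PLS3, UCHL1, NEFM, CDKN2A, TSPAN6 and WLS stood above it.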
